A study of Arabidopsis with 4 samples.

Results

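A set of 10 Arabidopsis genes known for responding to darkness and carbon starvation were followed in RNA sequencing of wild-type and mutant seedlings. They were chosen with earlier results of these data known and were taken by gene identifier. The genes were SEN1 (AT4G35770), DIN10 (AT5G20250), ASN1 (AT3G47340), DIN2 (AT3G60140), DIN9 (AT1G67070), DIN4 (AT3G13450), BCE2 (AT3G06850), BCAT2 (AT1G10070), AKINBETA1 (AT5G21170) and IVD (AT3G45300). All 10 were present among the 32833 genes of the deposited table, where SEN1 is listed as STR15, DIN2 as BGLU30 and DIN9 as PMI2. Of the 10, 5 lie on chromosome 3, 2 on chromosome 1, 2 on chromosome 5 and 1, SEN1, on chromosome 4, which also carries JMJ28. The wild type was the accession Col-0 (n = 2 libraries) and the mutant was jmj28-2 in the Col-0 background (n = 2 libraries), whose name refers to JMJ28, a KDM3-type histone demethylase with a JmjC domain. Both genotypes were sampled as seedlings 12 days old, raised at 23 °C with 16 h of light per day on half-strength MS medium that held 1% sucrose. No starvation or extended darkness was applied, so the values describe these genes in sugar-fed seedlings under a day and night cycle. The nature of the jmj28-2 lesion, the number of seedlings per library and the hour of harvest are not stated in the labels.

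When sugar runs short, at night or in shade, plant cells activate the kinase SnRK1, which switches metabolism from growth to the use of reserves. Many of its target genes were first found as dark-inducible (DIN) genes in Arabidopsis leaves, and sugar feeding represses them. Their products free sugars from oligosaccharides and cell walls, store nitrogen as asparagine and burn amino acids, the branched-chain ones above all, as a substitute fuel for mitochondria. Transcription factors of the bZIP groups S1 and C act below SnRK1 on part of these genes.

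The deposited values behave as TPM, transcript abundance per gene length scaled to a fixed total in each library, and between 19606 and 19751 genes per library reached 1 TPM. Sequencing depth is unknown. JMJ28 had 7.63 and 7.70 TPM in Col-0, against 5.45 and 5.72 TPM in jmj28-2, lower in both mutant libraries by an amount that did not pass (limma adjusted p = 0.235). Since the place of the lesion is not stated, this level does not check the labels. Markers of roots and of green tissue were above 0 in all 4 libraries, and 0 of them passed with limma. At an unadjusted p under 0.05, 2 root markers and 1 green tissue marker were lower and 0 were higher. The shares over all genes tested were 4.36% lower and 9.50% higher. The 13 root markers summed to 2193.5 and 2238.7 TPM in Col-0 and to 2351.9 and 1883.6 TPM in jmj28-2 replicates 1 and 2, with 11 of 13 lower in the mutant mean. Their median on the log2 scale lay at 0.00 in jmj28-2 replicate 1 and at -0.58 in replicate 2, relative to the mean of the Col-0 libraries. The 11 green tissue markers summed to 104050 and 106160 TPM in Col-0 and to 96473 and 104090 TPM in jmj28-2, with 9 of 11 lower. Of all 19764 genes tested, 8434 had a lower mean in jmj28-2 on the log2 scale. In these bulk samples fewer cells of a type and less RNA per cell cannot be told apart. Whether the replicates were grown apart is not stated, so p-values reflect only how much these libraries vary, and that variation may be technical.

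Of the 10 genes, 9 had a mean of at least 1 TPM and were tested, and 0 passed in either direction with limma at an adjusted p under 0.05 over all 19764 genes tested. Over all genes, 0.0405% were called higher and 0.0354% lower, 8 and 7 genes. Without either Col-0 library these counts were 0 and 0, without jmj28-2 replicate 1 they were 4 and 1, and without jmj28-2 replicate 2 they were 10 and 1. At an unadjusted p under 0.05, 2 of the 9 were higher (SEN1 and DIN10) and 1 was lower (DIN9), beside 9.50% higher and 4.36% lower over all genes tested. Among the 9, both jmj28-2 libraries lay above both Col-0 libraries for 7 and below them for 1, and the genotypes overlapped for 1, IVD. The corresponding shares among the genes tested were 29.0% above and 17.6% below. Because the genes were chosen with earlier results of these data known, their counts and medians are a description and not a test. DIN2, which was too low to be tested, also lay below Col-0 in both mutant libraries. The median log2 change of the 9 was 0.15 against 0.03 for all genes tested, and their changes ran from -0.42 to 0.65, on the scale of log2(TPM + 1), as are all log2 changes given here. That scale understates changes of genes with low values. Library by library, the median of the 9 exceeded the mean of the Col-0 libraries by 0.21 in jmj28-2 replicate 1 and by 0.12 in replicate 2. For all genes tested the same medians were 0.06 and 0.00.

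**Figure D1:**
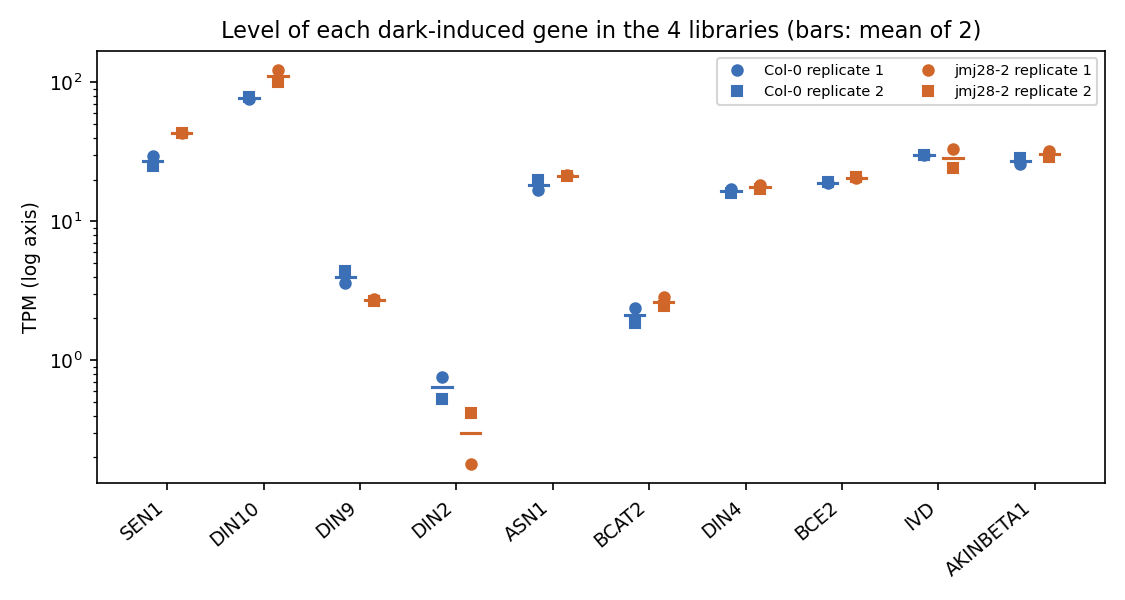
Level in TPM, on a log axis, of each of the 10 genes in every library, with a short bar at the mean of the 2 libraries of a genotype. SEN1 and DIN10 stand higher in both jmj28-2 libraries, DIN9 and DIN2 stand lower, and the other genes lie close together in the genotypes.

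SEN1 encodes a sulfurtransferase-like protein and is a long-used marker of darkness, senescence and sugar shortage. It had 29.39 and 24.97 TPM in Col-0, against 43.24 and 42.92 TPM in jmj28-2. The mutant libraries were nearly equal, and the lower of them was 13.5 TPM above the higher Col-0 library. The mean level in jmj28-2 was 1.58 times that in Col-0, a log2 change of 0.65 (SE 0.0924, 95% interval 0.41 to 0.89), which did not pass over all genes (limma adjusted p = 0.146). Of all genes tested, 2.0% had a log2 change at least as high. Across the 14 alternative settings the change ran from 0.54 to 0.76 and the adjusted p from 0.0767 to 0.455.

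DIN10 belongs to the raffinose synthase family, whose members add or remove galactose units on sucrose-based oligosaccharides. Its level was 76.30 and 78.61 TPM in Col-0, against 122.12 and 101.07 TPM in jmj28-2. Both mutant libraries exceeded both wild-type libraries by at least 22.5 TPM, but they also differed from each other by 0.27 on the log2 scale, against 0.04 between the Col-0 libraries. The ratio of the means was 1.44 and the log2 change 0.52 (SE 0.0998, 95% interval 0.26 to 0.77; limma adjusted p = 0.21). DIN10 was the most abundant of the 10 genes in either genotype, and 9.41% of the genes tested had a higher level in Col-0.

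In a list of 13 close relatives of the dark-induced genes, 11 were tested and 0 passed with limma, with 4 higher and 0 lower at an unadjusted p under 0.05 (9.50% and 4.36% of the genes tested). Relatives were also set beside the genes as shares of summed TPM, which do not depend on the scaling of a library. DIN10 made up 48.3% and 50.6% of the transcripts of 4 raffinose synthase-like genes in Col-0 and 56.6% and 55.0% in jmj28-2, so the genotypes did not overlap. SEN1 made up 11.5% and 10.9% of SEN1 and 3 other single-domain sulfurtransferases (STR16, STR17 and STR18) in Col-0 and 15.7% and 17.3% in jmj28-2. With 2 libraries against 2, a permutation test of such a share cannot give a two-sided p under 0.333, so the shares are given as a description.

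DIN9 encodes a mannose-6-phosphate isomerase, which interconverts mannose 6-phosphate and fructose 6-phosphate. Its level was 3.57 and 4.39 TPM in Col-0, against 2.77 and 2.66 TPM in jmj28-2. The mutant libraries lay below both wild-type libraries, opposite in direction to SEN1 and DIN10. The Col-0 mean was 1.47 times the jmj28-2 mean (log2 change -0.42, SE 0.147, 95% interval -0.79 to -0.04), which did not pass (limma adjusted p = 0.325). DIN9 was the minor isomerase gene of these seedlings, at 6.52% and 7.34% of the summed TPM of PMI1 and DIN9 in Col-0 and at 4.52% and 4.85% in jmj28-2. PMI1, the abundant partner, had 51.19 and 55.43 TPM in Col-0, against 58.51 and 52.21 TPM in jmj28-2, where the genotypes overlapped.

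DIN2 encodes a beta-glucosidase of the family that cleaves glucose from cell wall fragments and glucosides. Values were below 1 TPM throughout, at 0.76 and 0.53 TPM in Col-0, against 0.18 and 0.42 TPM in jmj28-2. The gene was barely detected in any library, and without the filter on low values the lower mutant mean did not pass (log2 change -0.34, limma adjusted p = 0.456). Also chosen with its values known, the related beta-glucosidase gene BGLU29 was listed at 0 in all 4 libraries. BGLU28, another relative named after its values were seen, had 2.29 and 1.73 TPM in Col-0, against 1.81 and 3.89 TPM in jmj28-2, with overlap.

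ASN1, also known as DIN6, encodes an asparagine synthetase that packs nitrogen into asparagine in the dark. It had 16.95 and 19.80 TPM in Col-0, against 21.39 and 21.14 TPM in jmj28-2. Both mutant libraries were higher, but the gap of 1.34 TPM between the nearest libraries was smaller than the 2.85 TPM between the Col-0 libraries. The ratio of the means was 1.16, with a log2 change of 0.20 and a 95% interval of -0.04 to 0.44 (limma adjusted p = 0.416), and the change was 0.10 without Col-0 replicate 1 and 0.31 without Col-0 replicate 2. The other asparagine synthetase genes showed the same direction. ASN2 had 89.02 and 84.76 TPM in Col-0, against 137.95 and 105.00 TPM in jmj28-2 (ratio 1.40, limma adjusted p = 0.267). ASN3 had 16.93 and 16.07 TPM in Col-0, against 19.41 and 20.60 TPM in jmj28-2 (ratio 1.21, adjusted p = 0.27). In all 3 genes both jmj28-2 libraries lay above both Col-0 libraries, as they did for 29.0% of all genes tested. The share of ASN1 in their sum overlapped between genotypes, at 13.8% and 16.4% in Col-0 and 12.0% and 14.4% in jmj28-2.

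**Figure D2:**
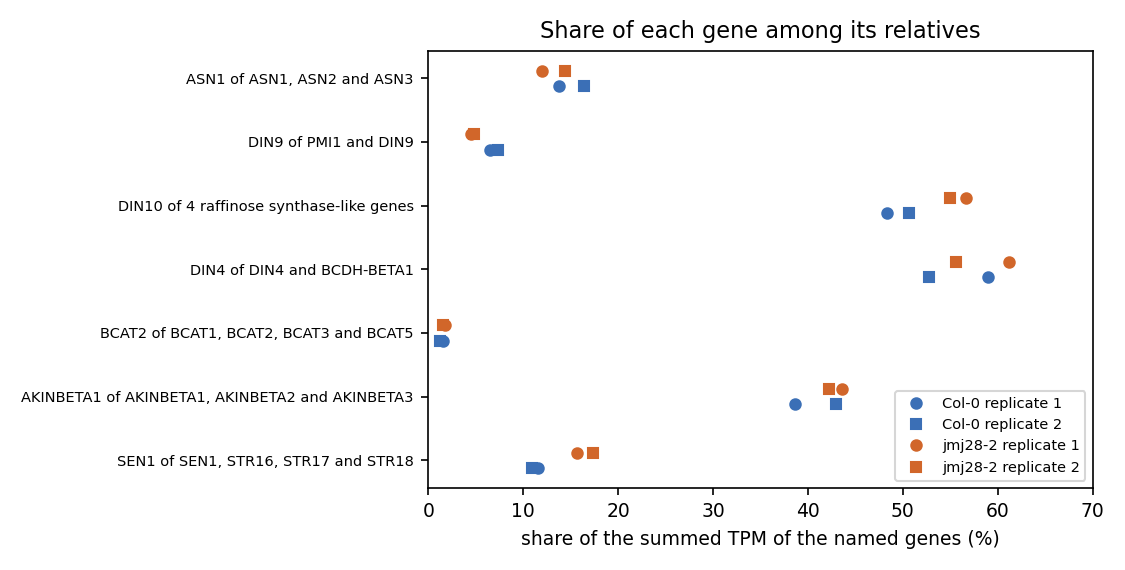
Share of each dark-induced gene in the summed TPM of itself and its named relatives, in percent, with a point per library. The shares of DIN10 and SEN1 are higher and that of DIN9 is lower in both jmj28-2 libraries, whereas the other 4 shares overlap between genotypes.

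A group of 4 of the genes acts in succession on leucine, isoleucine and valine. BCAT2 is an aminotransferase that removes the amino group, DIN4 (an E1 beta subunit) and BCE2 (the E2 acyltransferase, also known as DIN3) belong to the mitochondrial complex that then decarboxylates the keto acids, and IVD (isovaleryl-CoA dehydrogenase) carries out the next oxidation in leucine breakdown. None of the 4 passed with limma (adjusted p between 0.521 and 0.835), and their log2 changes ran from -0.09 to 0.23. At an unadjusted p under 0.05 were 0 of the 4, beside 9.50% higher and 4.36% lower over all genes tested. BCAT2 had 2.36 and 1.85 TPM in Col-0, against 2.85 and 2.44 TPM in jmj28-2. DIN4 had 16.99 and 15.92 TPM in Col-0, against 18.38 and 17.07 TPM in jmj28-2. For both, the nearest libraries of the genotypes were 0.08 TPM apart, less than the spread within either genotype. Leaving out 1 library moved the log2 change of BCAT2 from 0.23 to between 0.12 (without Col-0 replicate 2) and 0.35 (without Col-0 replicate 1). That of DIN4 moved from 0.10 to 0.06 without Col-0 replicate 2, 0.05 without jmj28-2 replicate 1 and 0.15 without either of the other libraries.

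BCE2 varied least within genotypes of the 10, at 18.76 and 19.29 TPM in Col-0, against 20.61 and 20.73 TPM in jmj28-2. Libraries of a genotype differed by at most 0.04 on the log2 scale, and the mutant mean was 1.09 times the wild-type mean, with a 95% interval of the log2 change from -0.06 to 0.29 (limma adjusted p = 0.521). IVD had 29.92 and 30.24 TPM in Col-0, against 33.00 and 24.17 TPM in jmj28-2. The mutant libraries lay on either side of the wild type, and without jmj28-2 replicate 2 the log2 change turned from -0.09 to 0.13 (adjusted p = 0.485). That is the library with the low root markers, and their part in the IVD value was not tested.

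BCAT2 was a small part of its enzyme group, at 1.59% and 1.25% of the summed TPM of BCAT1, BCAT2, BCAT3 and BCAT5 in Col-0 and 1.80% and 1.54% in jmj28-2. BCAT1 is its immediate neighbour on the chromosome, with 0 genes between them in RefSeq order, and reads of such related neighbours can be divided wrongly between them. BCAT1 had 13.71 and 12.40 TPM in Col-0, against 11.40 and 12.37 TPM in jmj28-2 (limma adjusted p = 0.598). Both mutant libraries lay below, by 0.03 TPM at the nearest, opposite in direction to BCAT2. Whether reads were divided wrongly was not tested. BCAT3, a plastid aminotransferase of amino acid synthesis, had 98.85 and 96.71 TPM in Col-0, against 108.88 and 110.10 TPM in jmj28-2 (ratio 1.12, limma adjusted p = 0.301). DIN4 supplied 59.0% and 52.7% of the E1 beta transcripts in Col-0 and 61.2% and 55.6% in jmj28-2, with BCDH-BETA1 supplying the rest.

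The 16 other genes of branched-chain breakdown were all tested. They cover the aminotransferase BCAT1, the remaining subunits of the complex, the later steps to acetyl-CoA and the electron transfer flavoprotein that takes up the electrons. With limma 0 of 16 passed, and 0 had an unadjusted p under 0.05, beside 9.50% higher and 4.36% lower over all genes tested. Both jmj28-2 libraries lay above Col-0 for 3 and below for 3, beside 29.0% and 17.6% of the genes tested. Their median log2 change was 0.03, equal to that of all genes, and ran from -0.02 without jmj28-2 replicate 1 to 0.06 without jmj28-2 replicate 2. Those with the smallest p pointed in different directions. ETFALPHA, a subunit of the flavoprotein, had 12.80 and 13.11 TPM in Col-0, against 15.44 and 14.30 TPM in jmj28-2 (adjusted p = 0.394). HML1, the hydroxymethylglutaryl-CoA lyase that ends leucine breakdown, had 38.88 and 40.60 TPM in Col-0, against 37.31 and 33.38 TPM in jmj28-2 (adjusted p = 0.426). LPD2, a dihydrolipoyl dehydrogenase, had 72.00 and 73.80 TPM in Col-0, against 84.20 and 75.22 TPM in jmj28-2 (adjusted p = 0.516).

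AKINBETA1 encodes a regulatory beta subunit of SnRK1 itself and is induced in the dark. It had 26.01 and 28.80 TPM in Col-0, against 31.91 and 29.18 TPM in jmj28-2. The mutant libraries were higher, by 0.38 TPM at the nearest, within the 2.79 TPM that separated the Col-0 libraries. The log2 change was 0.15 (95% interval -0.07 to 0.37, limma adjusted p = 0.496), or 0.08 without Col-0 replicate 1 and 0.09 without jmj28-2 replicate 1. AKINBETA1 supplied 38.6% and 42.9% of the beta subunit transcripts in Col-0 and 43.6% and 42.2% in jmj28-2. Among the 8 other genes for SnRK1 subunits and the kinases that activate it, 0 passed with limma, and the log2 changes ran from -0.12 to 0.06. At an unadjusted p under 0.05 were 0 of the 8, beside 9.50% higher and 4.36% lower over all genes tested. KIN11, a catalytic subunit, had 26.17 and 24.72 TPM in Col-0, against 24.35 and 22.20 TPM in jmj28-2 (adjusted p = 0.542). GRIK1, an activating kinase, and SNF4, the beta-gamma subunit, overlapped between genotypes, with means of 17.1 ± 0.46 and 30.3 ± 0.905 TPM in Col-0, against 17.9 ± 0.764 and 31.5 ± 0.764 TPM in jmj28-2 (SD, n = 2 each).

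**Figure D3:**
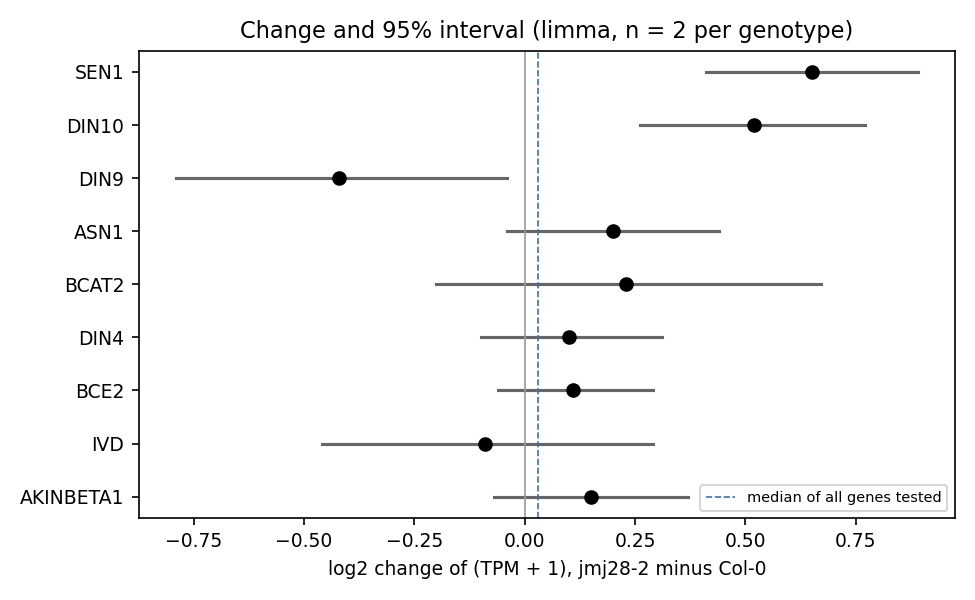
Log2 change of (TPM + 1), jmj28-2 minus Col-0, of the 9 tested genes, with 95% intervals from limma and a dashed line at the median of all genes tested, 0.03. The intervals of SEN1 and DIN10 lie above 0 and that of DIN9 below it, before adjustment for the number of genes, and the other 6 include 0.

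Because TPM are per length, levels can be ordered between genes. In Col-0 the order of mean level was DIN10 (77.5 TPM), IVD (30.1), AKINBETA1 (27.4), SEN1 (27.2), BCE2 (19.0), ASN1 (18.4), DIN4 (16.5), DIN9 (3.98), BCAT2 (2.11) and DIN2 (0.645 TPM). Neighbours whose libraries overlapped were AKINBETA1 and SEN1, BCE2 and ASN1, and ASN1 and DIN4. In jmj28-2 SEN1 stood in position 2, at 43.1 TPM, above AKINBETA1 (30.6 TPM) and IVD (28.6 TPM) with no overlap. AKINBETA1 and IVD, which were apart in Col-0, overlapped each other in jmj28-2, and so did DIN9 (2.72 TPM) and BCAT2 (2.65 TPM).

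Other genes known to be induced by low energy were described through a list of 18, of which 17 were tested. With limma 0 of 17 passed over all genes, and 7 were higher and 0 lower at an unadjusted p under 0.05 (9.50% and 4.36% of the genes tested). The median log2 change was 0.10. It was 0.17 and 0.07 without Col-0 replicates 1 and 2, and 0.07 and 0.33 without jmj28-2 replicates 1 and 2. Both jmj28-2 libraries lay above both Col-0 libraries for 8 of the 17 and below them for 1 (29.0% and 17.6% of the genes tested). BT2, a sugar-repressed BTB and TAZ domain protein, had 8.40 and 11 TPM in Col-0, against 29.72 and 25.73 TPM in jmj28-2. Its mean was 2.86 times the wild-type mean (log2 change 1.43, SE 0.144), larger than the change of any of the 9 dark-induced genes tested. It did not pass as tested (limma adjusted p = 0.09) and passed with robust fitting (adjusted p = 0.0375; range over the alternatives 0.0375 to 0.369). SEN5, a common SnRK1 reporter gene (AT3G15450), had 166.78 and 216.48 TPM in Col-0, against 347.65 and 329.14 TPM in jmj28-2 (ratio 1.77, adjusted p = 0.179). CHYR1, a ubiquitin ligase gene, had 29.22 and 34.36 TPM in Col-0, against 45.96 and 45.73 TPM in jmj28-2 (ratio 1.44, adjusted p = 0.191). For these 3 genes, as for SEN1 and DIN10, the genotypes were separated by more than the spread within either. The 3 were named for the smallest p of their list, and SEN1 and DIN10 had the smallest p of the 9. That choice favours such a separation, and its share over all genes was not counted.

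Not every gene of that list was higher in the mutant. Named after their values were seen, GDH1, a glutamate dehydrogenase, had 40.81 and 42.19 TPM in Col-0, against 38.79 and 40.40 TPM in jmj28-2, and the autophagy gene ATG8H had 31.79 and 38.59 TPM in Col-0, against 41.83 and 25.59 TPM in jmj28-2. The list's median exceeded the mean of the Col-0 libraries by 0.33 in jmj28-2 replicate 1 and by 0.07 in replicate 2. For all genes tested the same medians were 0.06 and 0.00.

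Among 9 bZIP factors of groups S1 and C, 0 passed with limma, and 1 was higher and 1 lower at an unadjusted p under 0.05 (9.50% and 4.36% of the genes tested). BZIP1, a sugar-repressed S1 factor that binds the ASN1 promoter, had 15.32 and 20.87 TPM in Col-0, against 25.67 and 28.44 TPM in jmj28-2 (ratio 1.5, log2 change 0.57, adjusted p = 0.256). BZIP9, of group C, had 50.10 and 53.72 TPM in Col-0, against 44.95 and 40.24 TPM in jmj28-2 (ratio 0.821, adjusted p = 0.267). BZIP53, an S1 factor, had 40.42 and 44.63 TPM in Col-0, against 47.83 and 47.46 TPM in jmj28-2 (adjusted p = 0.398). BZIP63, the group C factor that SnRK1 phosphorylates, named after its values were seen, had 49.78 and 50.23 TPM in Col-0, against 56.61 and 48.78 TPM in jmj28-2, with overlap.

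Genes that sugar induces were listed as the opposite arm of the response. Of 9, all tested, 0 passed with limma, and 1 was higher and 1 lower at an unadjusted p under 0.05 (9.50% and 4.36% of the genes tested). The median log2 change was 0.18, but it rested on single libraries, at 0.09 without Col-0 replicate 1, 0.28 without Col-0 replicate 2, 0.31 without jmj28-2 replicate 1 and 0.04 without jmj28-2 replicate 2. GPT2, a glucose-6-phosphate transporter of the plastid, had 1.88 and 1.51 TPM in Col-0, against 4.29 and 4.64 TPM in jmj28-2 (ratio 2.63, adjusted p = 0.163). MYB75, a regulator of anthocyanin synthesis, had 4.54 and 3.82 TPM in Col-0, against 2.53 and 2.34 TPM in jmj28-2 (ratio 0.583, adjusted p = 0.235). SUS1, a sucrose synthase, had 25.71 and 23.54 TPM in Col-0, against 27.08 and 30.84 TPM in jmj28-2 (ratio 1.18, adjusted p = 0.378).

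**Figure D4:**
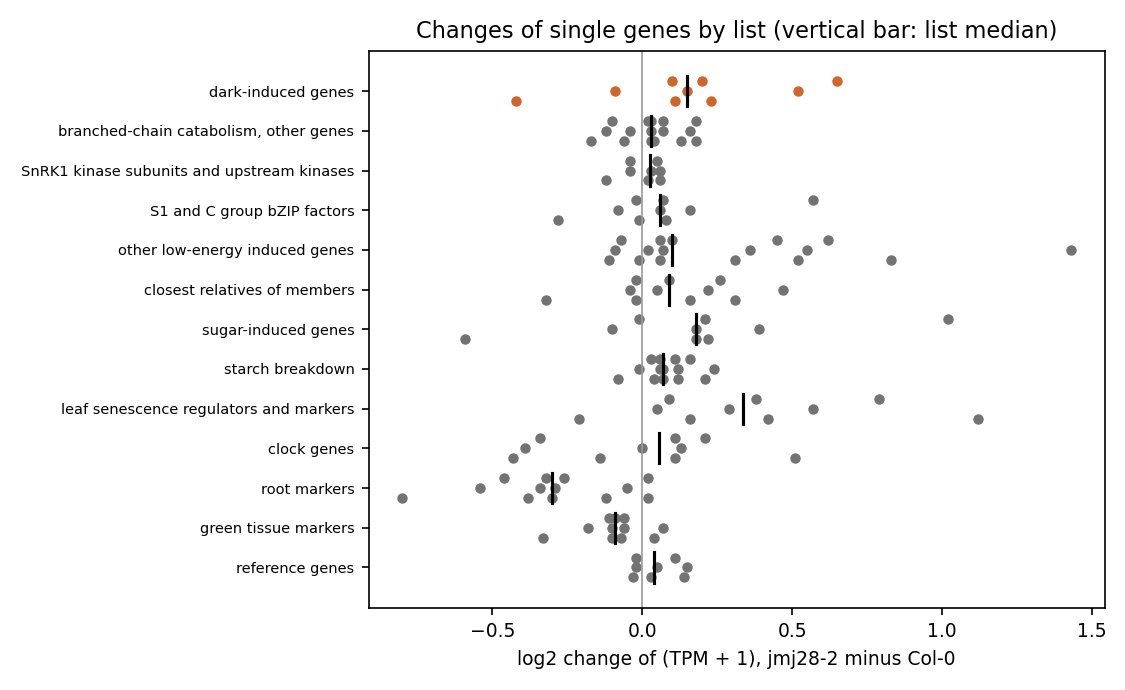
Log2 change of (TPM + 1), jmj28-2 minus Col-0, of each tested gene (points) by list, with the list median as a vertical bar. The dark-induced genes (orange), AKINBETA1 among them, spread from -0.42 to 0.65 around a median of 0.15. The 8 other genes for SnRK1 subunits and activating kinases stay between -0.12 and 0.06.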

How the data were processed

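RNA sequencing of 4 libraries was analysed from 1 deposited table with 0 unmatched sample columns. The table is labelled FPKM, but its columns sum to between 998943 and 999014, as TPM do, and the deposited values, which the authors rounded to 2 decimals, were read as TPM. TopHat, RSEM and edgeR with build TAIR10 are named per the submitters' processing notes. Versions, annotation, filters and strand use are not given in the sources available. TPM carry no depth, so no counting interval is given, and they share a fixed total.

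Genes with a mean of at least 1 TPM were fitted as log2(TPM + 1) in limma 3.58.1 (R 4.3.3), whose model held genotype alone, with an intensity trend (2 residual and 3.18 prior degrees of freedom), and adjusted over all genes by the Benjamini-Hochberg method. Tests were two-sided. The design had assumed FPKM or TPM, with the same test. The procedure was run on simulated data whose planted log2 changes were larger than those of the dark-induced genes. That run does not measure how often changes of their size would be called. Figures used matplotlib 3.10.9.

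The 10 genes and all lists were chosen with earlier results of these data known, so lists are described by counts and medians and not tested. From each list other than the marker and reference lists the 3 tested genes with the smallest p were named; partners in shares, and genes said to be so, were named after their values were seen. A related gene of the planned lists is not reported here. All 152 listed identifiers matched a RefSeq table on TAIR10.1, used for names, chromosomes and gene order only. The replicate numbers of the genotypes were not taken as pairs. The 14 alternatives were other pseudocounts, filters, scalings and variance models, a replicate block, and each library left out.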

Additional observations from a re-analysis of the deposited data

How the results depend on the processing

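With limma, 0 of the 9 tested genes were called in either direction under any of the 14 alternatives that could fit them. DIN2 could be fitted only without the filter, where it was not called. The 8 genes tested apart from IVD kept their direction wherever they could be fitted, which for BCAT2 and DIN9 excludes the filter at a mean of 5 TPM. IVD turned from a log2 change of -0.09 to 0.13 without jmj28-2 replicate 2, and ran from -0.3 to 0.13 when 1 library was left out. The median log2 change of the 9, 0.15 as reported, ran from 0.10 to 0.21 when 1 library was left out, in which case the lone library of a genotype is assumed to vary like the others, and from 0.11 to 0.16 otherwise.

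Over all genes, the 8 called higher became 4 without the filter, 3 without the intensity trend and 29 with robust fitting, and 0 to 10 when 1 library was left out. The 7 called lower became 4 with the filter at 5 TPM and 14 with robust fitting, and 0 to 1 when 1 library was left out. Leaving out either Col-0 library gave 0 calls with limma, with 1738 genes (without replicate 1) and 1249 (without replicate 2) at an unadjusted p under 0.05. Robust fitting also called BT2 and SAG21 among the listed genes. Rescaling the libraries moved the median log2 change of all genes from 0.03 to 0.00.

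With the replicate block, 12 genes were called higher and 6 lower, 0 of them among the 10, and the median of the 9 was 0.15. Same-numbered libraries hardly deviated together (Pearson's r = 0.02 across genes, which are not independent replicates), so the numbers were not taken as pairs. Because TPM hold no depth, how far counting error limits DIN2, BCAT2 and DIN9, the lowest of the 10, is unknown.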

Other observations

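Leaf senescence genes, 12 in the list and 10 tested, had a median log2 change of 0.33, and 9 of 10 had a higher mean in jmj28-2 (57.3% of all genes tested did). With limma 0 passed, and 4 were higher and 0 lower at an unadjusted p under 0.05 (9.50% and 4.36% of the genes tested). SAG21, a late embryogenesis-type protein of stress and senescence, had 101.98 and 102.64 TPM in Col-0, against 190.11 and 165.45 TPM in jmj28-2 (ratio 1.74, adjusted p = 0.09; 0.0332 with robust fitting, range over the alternatives 0.0332 to 0.502). SAG101, an acyl hydrolase-like protein, had 5.22 and 6.28 TPM in Col-0, against 7.5 and 8.04 TPM in jmj28-2 (adjusted p = 0.291), and WRKY53 had 2.1 and 2.25 against 4.90 and 7.10 TPM (adjusted p = 0.18). Also chosen with its values known, SAG12, the protease gene that marks advanced senescence, was listed at 0 in all 4 libraries. The chlorophyll breakdown gene SGR1, named after its values were seen, had 11.96 and 14.48 TPM in Col-0, against 11.51 and 11.03 TPM in jmj28-2.

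Starch breakdown genes had a higher mean in jmj28-2 for 12 of 14 (57.3% of all genes tested) and 0 calls with limma, with 2 higher and 0 lower at an unadjusted p under 0.05 (9.50% and 4.36%). Their median log2 change of 0.07 moved with single libraries, to 0.02 and 0.12 without Col-0 replicates 1 and 2 and to 0.13 and 0.03 without jmj28-2 replicates 1 and 2. The phosphorylases PHS2 and PHS1 had the smallest p. PHS2 had 93.07 and 92.43 TPM in Col-0, against 100.98 and 113.95 TPM in jmj28-2 (adjusted p = 0.331). PHS1 had 114.37 and 112.54 TPM in Col-0, against 123.17 and 145.31 TPM in jmj28-2 (adjusted p = 0.347). GWD1, the dikinase that starts starch breakdown, had 80.77 and 84.89 TPM in Col-0, against 87.78 and 91.44 TPM in jmj28-2 (adjusted p = 0.474).

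Dark-induced genes also follow the time of day, and clock genes were listed for that reason. Of 10, 5 had a higher and 5 a lower mean in jmj28-2, and 0 passed with limma, with 2 higher and 2 lower at an unadjusted p under 0.05 (9.50% and 4.36% of the genes tested). PRR5 had 15.89 and 15.54 TPM in Col-0, against 22.86 and 22.82 TPM in jmj28-2 (adjusted p = 0.142). The morning gene CCA1 had 54.48 and 60.00 TPM in Col-0, against 47.36 and 37.79 TPM in jmj28-2 (adjusted p = 0.266), and PRR9 had 34.85 and 34.82 against 27.51 and 27.04 TPM (adjusted p = 0.197). The part of harvest time in the values of SEN1, DIN10 or DIN9 was not tested. The 8 reference genes had log2 changes between -0.03 and 0.15, with 0 calls. At an unadjusted p under 0.05 were 0 of the 8, beside the same 9.50% higher and 4.36% lower over all genes tested.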
